A study of Mus musculus with 201 samples.

Results

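The autophagy machinery was taken by a rule on gene symbols, so that a member need not act in autophagy: the *Atg* genes, *Ulk1* to *Ulk4*, *Map1lc3a*, *Map1lc3b*, *Gabarap*, *Gabarapl1*, *Gabarapl2*, *Becn1*, *Wipi1*, *Wipi2* and *Sqstm1*. This rule found 31 members among the 42983 gene symbols of the tables, and all 31 were present in each of the 3 pairs of tables. RNA was sequenced from single mouse dentate granule cells (DGCs), the principal neurons of the dentate gyrus of the hippocampus. Whole DGCs came from *Prox1*-GFP mice, in which green fluorescent protein under the *Prox1* promoter marks DGCs, from a pool of 2 mice per treatment by the methods (the series text names a single mouse), and were dissociated with a protease and sorted as GFP+ 1 h after injection of pentylenetetrazole (PTZ, 50 mg per kg, which blocks GABA(A) receptors and causes seizures) or of saline. The age of the *Prox1*-GFP mice was not given in the sources used here. Nuclei came from wild-type female C57BL/6 mice of 8 weeks by Dounce homogenization: 1 mouse was placed in an unfamiliar environment (NE) and its nuclei were sorted as Prox1+ and either Fos+ (FOS+) or Fos− (FOS−) by protein staining, and 1 mouse stayed in its home cage (HC) and gave nuclei scored as NeuN+ and Prox1+. The methods give NE exposure as 15 min, with collection 1 h later. No group carried a deletion, and the FOS+ and FOS− nuclei shared 1 animal and 1 isolation.

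Autophagy is the route by which a cell encloses part of its cytoplasm in a double membrane, the autophagosome, and delivers it to the lysosome. The ULK kinase complex starts the process, a lipid kinase complex built on Beclin 1 marks the membrane, ATG9, ATG2 and WIPI proteins supply and recruit lipid, and 2 conjugation systems attach small ubiquitin-like ATG8 proteins (the LC3 and GABARAP families) to the growing membrane. Receptors such as p62, encoded by *Sqstm1*, tether cargo to ATG8. Neurons do not divide and depend on this route to clear proteins and organelles, with autophagosomes formed in axons and carried back to the cell body.

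A cell or nucleus was counted as expressing a gene when its length-normalized transcript abundance (TPM, which sums to the same total in every cell) was above 1, and levels were averaged as log2(TPM + 1), so that differences of low genes are understated. Of the 201 cells and nuclei, 40 FOS+, 41 FOS−, 23 HC, 30 PTZ and 38 saline passed the limits on depth and genes. Their total counts ran from 67212 to 5129240 in PTZ cells, from 401331 to 2696043 in saline cells, from 63775 to 1060516 in NE nuclei and from 107647 to 278779 in HC nuclei. Each group came from 1 mouse or 1 pool of mice, so no group had a biological replicate: the values below have no test, the SDs are over cells, and the 95% intervals are exact (Clopper-Pearson for shares, Poisson for counts) and cover counting error only, since without molecular identifiers several reads can come from 1 molecule. The sample titles of PTZ cells end in one code and those of saline cells in another, so whatever the code marks and the treatment cannot be told apart. *Prox1* was detected in 100% of PTZ and saline cells, in 82.5% of FOS+, 82.9% of FOS− and 60.9% of HC nuclei. *Arc*, an activity-regulated gene, was detected in 77.5% of FOS+ nuclei and in 2.44% of FOS− nuclei, while *Fos* was detected in 86.7% of PTZ and 78.9% of saline cells.

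Some libraries stood apart. Of the 30 PTZ cells, 4 had 10244 to 12220 genes detected, against at most 7437 in the other 26 and at most 7854 in saline cells. Their *Prox1* levels were 367 to 636 TPM. A further PTZ cell (replicate 22) held 833 TPM of *Gfap* and 2588 TPM of *Slc1a3*, astrocyte markers, beside 95.7 TPM of *Prox1*. One FOS+ nucleus (replicate 46) had 1373 genes and *Prox1* at 0 TPM. Results that rest on them are given with and without them. Of the other marker lists, *Slc32a1*, which defines inhibitory neurons, was at 0 in FOS+, HC, PTZ and saline samples, and *Mog*, which defines mature oligodendrocytes, was at 0 in FOS+, HC and saline. The summed oligodendrocyte list was present in both sort groups, with medians of 36 TPM in FOS+ and 24.8 TPM in FOS− nuclei and highest values of 964 and 715 TPM. The summed list of 5 astrocyte markers ran from 0 to 3830 TPM in PTZ cells and from 0 to 87.4 TPM in saline cells, with medians of 0. In FOS+ and FOS− nuclei the astrocyte list had medians of 9.56 and 8.05 TPM and the microglia list of 3.27 and 4.83 TPM. The part of other cells' RNA in the values below was not tested.

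Members were not detected equally. In whole cells 4 genes were found in nearly every cell: *Gabarapl1*, *Gabarapl2*, *Map1lc3b* (ATG8 modifiers) and *Sqstm1* were each found in 38 of 38 saline cells (100%, 95% interval 90.7 to 100) and in 27 or 28 of 30 PTZ cells. *Atg16l1*, whose protein directs the ATG8 conjugation machinery to the membrane, was found in 39 of 40 FOS+ (97.5%, 86.8 to 99.9), 41 of 41 FOS− (100%, 91.4 to 100) and 22 of 23 HC nuclei (95.7%, 78.1 to 99.9), but in 15 of 30 PTZ (50%, 31.3 to 68.7) and 29 of 38 saline cells (76.3%, 59.8 to 88.6). After every cell was thinned to 50000 reads, *Atg16l1* was still found in 87.5% of FOS+, 97.6% of FOS− and 82.6% of HC nuclei and in 40% of PTZ and 55.3% of saline cells. Whole cells, NE nuclei and HC nuclei differ in mouse, platform and read length, and their tables were normalized separately, so levels across tables stand side by side and no difference between them was tested.

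**Figure D1:**
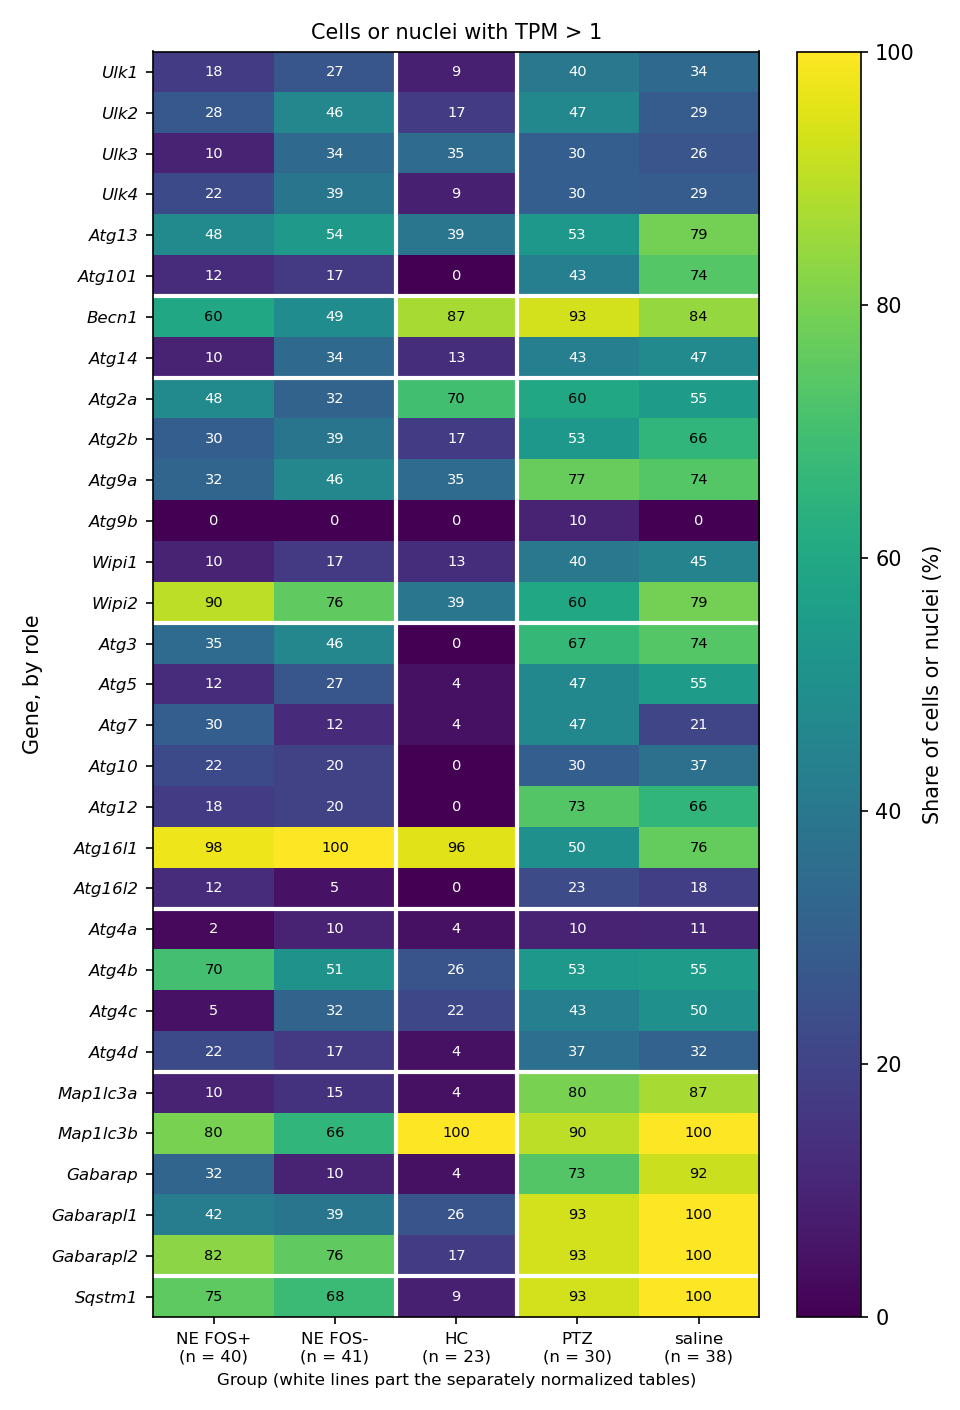
The share of cells or nuclei (%) with a TPM above 1 is shown by colour and number for each of the 31 members (rows, ordered by role) in the 5 groups (columns, n cells or nuclei each). *Atg16l1* is at 95.7% or above in the 3 groups of nuclei, whereas *Sqstm1* and 4 of the 5 ATG8 modifiers are at 80% or above in both groups of whole cells.

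In the ATG8 family, *Gabarapl1* was the leading modifier of whole cells. Its TPM in saline cells ran from 177 to 1617 with a median of 841, and in PTZ cells from 0 to 1645 with a median of 593. It supplied 41.4% of the summed mean TPM of the 5 modifiers in saline and 34.2% in PTZ cells, and it was the most abundant modifier in 30 of 38 and 16 of 30 cells. In NE nuclei the leading modifier was *Gabarapl2*, with 49.8% of the summed mean TPM in FOS+ and 44% in FOS− nuclei. Its TPM ran from 0 to 1474 with a median of 51.2 in FOS+ nuclei and from 0 to 1297 with a median of 23.9 in FOS− nuclei. In HC nuclei it was *Map1lc3b*, found in 23 of 23 nuclei, with TPM from 3.56 to 1212 and a median of 35.2. *Gabarapl2* was found in 4 of 23 HC nuclei (17.4%, 4.95 to 38.8), against 33 of 40 FOS+ (82.5%, 67.2 to 92.7) and 31 of 41 FOS− nuclei (75.6%, 59.7 to 87.6). Of the 50-base stretches of their transcripts, 6.01% for *Map1lc3b*, 12.2% for *Gabarapl2* and 23.1% for *Gabarapl1* also occur in other genes, so part of these counts depends on how reads were divided.

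*Sqstm1*, the p62 cargo receptor, was near the top of whole cells. It ran from 90 to 1938 TPM in saline cells, with a median of 669, and from 0 to 1384 TPM in PTZ cells, with a median of 692. In FOS+ nuclei it was found in 30 of 40 with a median of 17.4 TPM, and in FOS− nuclei in 28 of 41 with a median of 22.9 TPM. In HC nuclei it was found in 2 of 23 (8.70%, 1.07 to 28), at 5.41 and 922 TPM. In this gene 15.5% of 50-base stretches are shared with the overlapping antisense gene *Mrnip*, and the library method does not mark strand.

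*Becn1*, which encodes the Beclin 1 scaffold of the lipid kinase complex, was found in 28 of 30 PTZ (93.3%), 32 of 38 saline (84.2%), 24 of 40 FOS+ (60%), 20 of 41 FOS− (48.8%) and 20 of 23 HC samples (87.0%). Its neighbour on the opposite strand, *Cntd1*, shares 36.8% of the 50-base stretches of *Becn1* and was found in 85% of FOS+, 80.5% of FOS− and 78.3% of HC nuclei but in 13.3% of PTZ and 34.2% of saline cells. Reads of these overlapping genes cannot be told apart without strand, so the share of nuclei with *Becn1* is uncertain. *Wipi2*, a lipid-binding adaptor, was found in 90% of FOS+ and 75.6% of FOS− nuclei, in 39.1% of HC nuclei, and in 60% of PTZ and 78.9% of saline cells.

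The members found in the fewest whole cells were the paralogs *Atg9b*, *Atg4a* and *Atg16l2*. *Atg9b*, the second gene for the membrane scramblase ATG9, was above 1 TPM in 0 of 38 saline cells (exact 95% upper limit 9.25%), 0 of 40 FOS+ (8.81%), 0 of 41 FOS− (8.60%) and 0 of 23 HC nuclei (14.8%), and in 3 PTZ cells, all 3 among the 4 cells with over 10000 genes. *Atg9a* was found in 28 of 38 saline and 23 of 30 PTZ cells. *Atg4a*, one of 4 genes for the protease that trims ATG8, was found in 4 of 38 saline and 3 of 30 PTZ cells, and 51.2% of its 50-base stretches are shared with the pseudogene *Atg4a-ps*. In HC nuclei, *Atg3*, *Atg10*, *Atg12*, *Atg16l2*, *Atg101* and *Atg9b* had 0 reads in 23 nuclei. The exact 95% upper limit of 14.8% applies to nuclei with a read of the gene at this depth, not to nuclei that express it.

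In the order of mean levels, *Gabarapl1* (9.50 ± 0.84, SD over cells) stood before *Sqstm1* (9.30 ± 0.94), *Gabarapl2* (8.41 ± 0.73), *Map1lc3b* (7.59 ± 1.71) and *Gabarap* (7.43 ± 2.43) in saline cells, in log2(TPM + 1). In PTZ cells *Sqstm1* (8.49 ± 2.53) and *Gabarapl1* (8.29 ± 2.57) led. In FOS+ nuclei the order was *Atg16l1* (5.79 ± 1.89), *Gabarapl2* (5.21 ± 3.40), *Wipi2* (4.34 ± 2.35) and *Sqstm1* (4.27 ± 3.16), and in FOS− nuclei *Atg16l1* (5.53 ± 1.39), *Gabarapl2* (4.47 ± 3.49), *Sqstm1* (4.13 ± 3.51) and *Wipi2* (4.02 ± 2.90). In HC nuclei *Map1lc3b* (5.37 ± 1.69) and *Atg16l1* (4.99 ± 1.99) led. In every one of the 5 groups, each pair of neighbours in the order differed by no more than the larger of their SDs over cells.

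In most single cells and nuclei only part of the members was detected, and a member that was not detected may still be expressed. FOS+ nuclei held between 3 and 17 of the 31 members with a median of 10, FOS− nuclei between 4 and 20 with a median of 10, and HC nuclei between 4 and 11 with a median of 7. PTZ cells held between 6 and 31 with a median of 16.5 and saline cells between 10 and 25 with a median of 19. The number went with the number of genes detected: Spearman's rho across cells was 0.81 in FOS+, 0.83 in FOS−, 0.86 in PTZ and 0.76 in saline samples and 0.18 in HC nuclei, a description over points that share depth. The 4 PTZ cells with over 10000 genes held 28 to 31 members, and the other 26 held 6 to 21 with a median of 14.5. After thinning to 50000 reads the medians were 7.5, 8, 5, 14.5 and 15.5 members in FOS+, FOS−, HC, PTZ and saline samples.

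**Figure D2:**
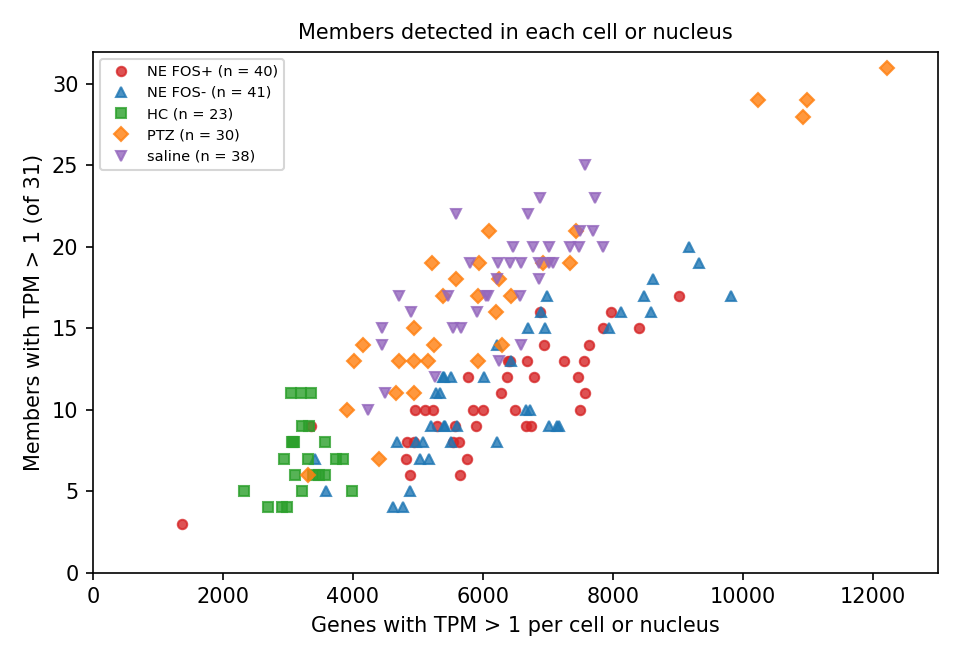
Each point is 1 cell or nucleus, with the number of genes above 1 TPM on the x axis and the number of the 31 members above 1 TPM on the y axis, and symbols mark the 5 groups. The 4 PTZ cells at the upper right hold 28 to 31 members, while HC nuclei hold 4 to 11.

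The comparison of FOS+ with FOS− nuclei asks what differs between neurons sorted with and without FOS protein after the NE, within 1 animal. For its own comparison the paper left out some FOS+ nuclei whose RNA resembled that of FOS− nuclei. The labels do not name those nuclei, and none was removed on that ground here. A gene was counted as past the limits if its share of nuclei differed by at least 20 percentage points and its mean log2(TPM + 1) by at least 1 in the same direction. Of the members, 30 had a read in at least 5 nuclei and were compared, and *Atg9b*, with reads in 1 nucleus, was not. *Gabarap* was higher in FOS+ nuclei, and *Atg14* and *Atg4c* were lower. That is 1 of 30 members (3.33%) higher, where 2.98% of the 16411 genes compared were, and 2 of 30 (6.67%) lower, where 3.05% of all genes were, so with so few members these counts are near the background and say nothing about the members as a group. The other 27 were not past the limits. The medians over members were −3.54 points and −0.23 in log2(TPM + 1), beside −0.79 points and −0.09 over all genes compared.

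*Gabarap* encodes an ATG8 modifier and names one branch of that family. It was found in 13 of 40 FOS+ nuclei (32.5%, 18.6 to 49.1) and in 4 of 41 FOS− nuclei (9.76%, 2.72 to 23.1). Its median was 0 TPM in both groups, and where it was detected it ran from 8.81 to 849 TPM in FOS+ and from 56.3 to 273 TPM in FOS− nuclei, so the groups overlapped. The mean level was 2.42 ± 3.77 against 0.72 ± 2.25 in log2(TPM + 1), a difference of 1.70, and the summed counts were 1310 (1240 to 1383) of 14456318 reads against 75 (59.0 to 94) of 13961217. The difference had the same sign in 4 of 4 amplification conditions, from 0.12 to 3.33. *Gabarap* was found in 1 of 23 HC nuclei, with 1 read.

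*Atg14*, the subunit that directs the Beclin 1 lipid kinase to autophagy, was found in 4 of 40 FOS+ (10.0%, 2.79 to 23.7) and 14 of 41 FOS− nuclei (34.1%, 20.1 to 50.6). It ran up to 98.3 TPM in FOS+ and up to 154 TPM in FOS− nuclei with medians of 0, so the groups overlapped. Its mean level was 0.52 ± 1.60 against 1.59 ± 2.43, a difference of −1.07 in log2(TPM + 1), and with any of 8 FOS− nuclei left out it was no longer past the limits. *Atg4c*, an ATG4 protease, was found in 2 of 40 FOS+ nuclei (5%, 0.61 to 16.9), at 1.17 and 1.25 TPM, and in 13 of 41 FOS− nuclei (31.7%, 18.1 to 48.1), at up to 385 TPM. Its mean level was 0.06 ± 0.25 in FOS+ and 1.56 ± 2.54 in FOS− nuclei, a difference of −1.51. Both FOS+ nuclei with *Atg4c* lay below the lowest FOS− nucleus that held it, at 1.65 TPM. All its FOS+ counts amounted to 3 reads (0.62 to 8.77), against 863 (806 to 923) in FOS− nuclei, of which 78.2% lay in 1 nucleus. Both genes were lower in FOS+ nuclei in 4 of 4 amplification conditions, with differences from −2.14 to −0.57 for *Atg14* and from −2.21 to −0.61 for *Atg4c*. A transcript of the antisense gene *Gm49004* shares 4.46% of the 50-base stretches of *Atg14*.

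Sequence near the RefSeq start of the 2 lower genes is printed for reference, 5′ to 3′ on the gene's strand, from RefSeq windows of GRCm38.p6. The RefSeq start of *Atg14* lies 2215 bases inside its GENCODE gene, and so its window may not be the promoter used in DGCs. RefSeq gave windows of 300 bases, 250 before and 50 after a start, for 27 of the 31 members, 29 windows in all. For *Atg4c* (chr4:99193814-99193933, + strand) the 120 bases before the start are given, and for *Atg14* (chr14:47568418-47568447, − strand) the 30 bases around a CACGTG motif, which is in capitals.
Atg4c: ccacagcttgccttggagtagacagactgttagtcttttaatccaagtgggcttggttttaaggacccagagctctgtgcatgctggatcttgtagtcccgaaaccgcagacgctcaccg
Atg14: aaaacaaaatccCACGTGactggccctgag

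**Figure D3:**
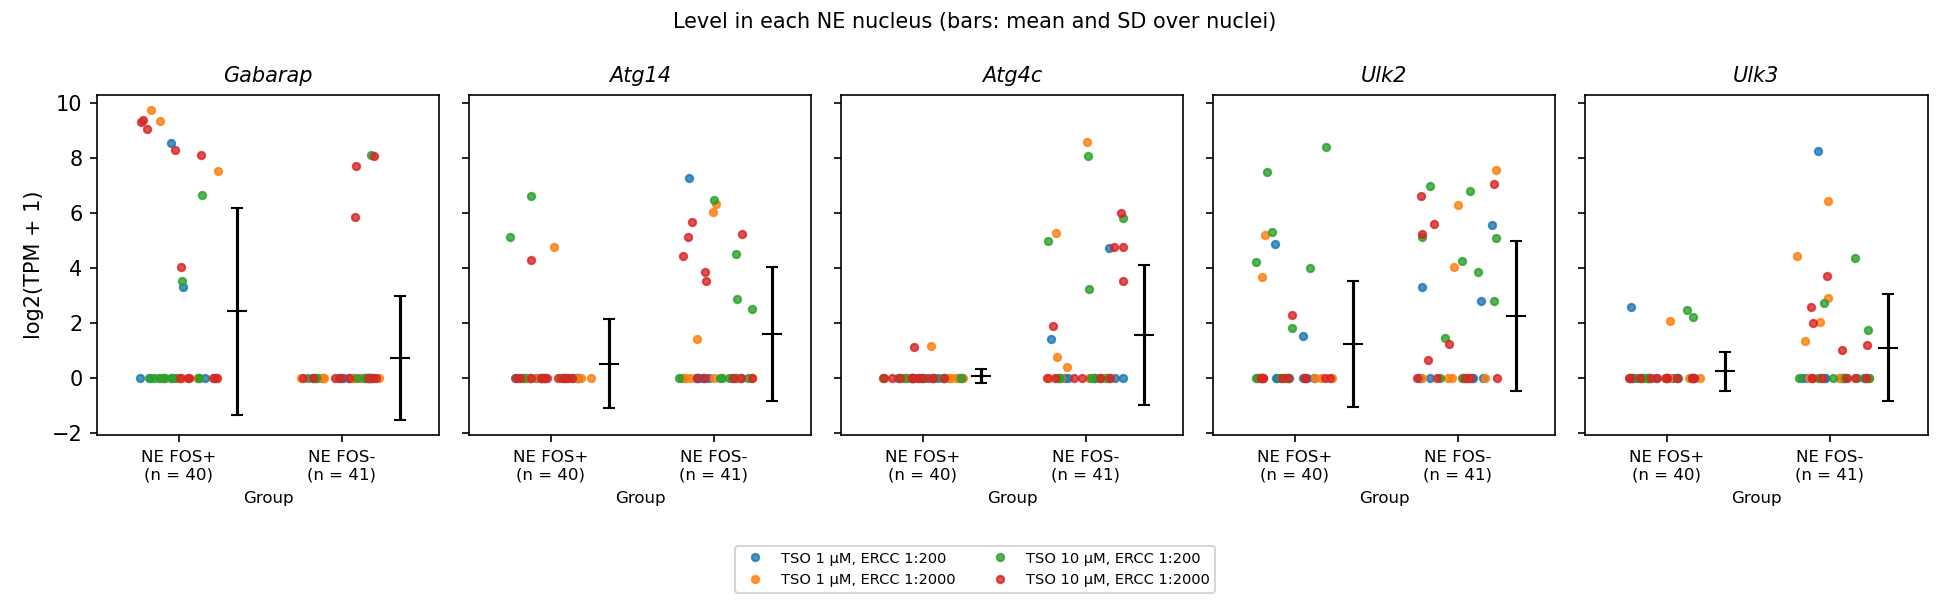
Each point is 1 NE nucleus, with log2(TPM + 1) on the y axis and colour marking the 4 amplification conditions (template-switching oligo, TSO, and ERCC spike-in dilution), and bars give the mean and SD over nuclei. Most nuclei sit at 0 for each gene. *Gabarap* is above 1 TPM in 13 of 40 FOS+ and 4 of 41 FOS− nuclei, and *Atg4c* in 2 and 13.

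The 6 genes grouped here as ULK kinases and their partners (*Ulk1* to *Ulk4*, *Atg13* and *Atg101*) were all found in fewer FOS+ than FOS− nuclei. Of the 16411 genes compared, 8529 were, and none of the 6 was past the limits. The median difference of these 6 genes was −12.9 points, beside −0.79 over all genes. The mean level was lower for 5 of the 6, and that of *Atg101* differed by 0.04 the other way (0.96 ± 2.64 and 0.92 ± 2.32). *Ulk3* just missed the limit on level, with 4 of 40 against 14 of 41 nuclei (10.0% and 34.1%) and a difference in level of −0.86. *Ulk2* just missed the limit on share, with 11 of 40 against 19 of 41 nuclei (27.5% and 46.3%) and a difference in level of −1.03. *Ulk4* was found in 22.5% and 39%, with a difference of −0.89, and *Ulk1* in 17.5% and 26.8%. The differences in level of *Ulk2*, *Ulk3* and *Ulk4* were below 0 in 4 of 4 amplification conditions each. *Atg13*, the adaptor of the complex and the most abundant of the 6 genes, was found in 47.5% and 53.7%, and *Atg101* in 12.5% and 17.1%. Summed over the 6 genes, the median was 18.2 TPM in FOS+ nuclei (range 0 to 611) and 110.0 TPM in FOS− nuclei (0 to 837). FOS+ and FOS− nuclei overlapped over most of their range. The sum does not stand for the ULK complex as a whole. *Ulk3* and *Ulk4* were grouped by name and not as subunits of that complex, and *Rb1cc1* lies outside the rule for members. *Rb1cc1* was found in 80% of FOS+ and 78.0% of FOS− nuclei, with levels of 4.49 ± 3.09 and 5.26 ± 3.31, not past the limits. After thinning to 50000 reads the share of *Atg101* was higher in FOS+ nuclei (12.5% against 7.32%) and those of the other 5 genes were still lower. *Ulk2* lay so near the limit on share that it passed with 33 of the 81 nuclei left out singly, among them the FOS+ nucleus of 1373 genes.

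None of the abundant members of the other roles was past the limits. *Atg16l1* was at 5.79 ± 1.89 in FOS+ and 5.53 ± 1.39 in FOS− nuclei, *Gabarapl2* at 5.21 ± 3.40 and 4.47 ± 3.49, *Sqstm1* at 4.27 ± 3.16 and 4.13 ± 3.51, *Wipi2* at 4.34 ± 2.35 and 4.02 ± 2.90, and *Becn1* at 3.46 ± 3.37 and 2.99 ± 3.76. For *Sqstm1* the sign turned after thinning to 50000 reads, from a difference of 0.13 in log2(TPM + 1) to one of −0.90 in log2(CPM + 1). That of *Atg16l1* turned as well, from 0.26 to −0.26. *Atg4b*, the most abundant ATG4 protease, was found in 28 of 40 FOS+ (70.0%) and 21 of 41 FOS− nuclei (51.2%). Its difference of 18.8 points became 0.85 points after thinning, and its difference in level went from 0.18 to −0.10. *Atg7*, which activates ATG8 and ATG12 for conjugation, was found in 30% and 12.2%, a difference of 17.8 points and 0.69 in level, short of both limits. After thinning the difference of *Atg7* was 10.2 points.

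Of 37 further genes of the pathway, 36 were in the tables and 31 were compared in nuclei. None was past the limits on the higher side (2.98% of all genes were) and 2 of 31 (6.45%, beside 3.05% of all genes) were on the lower side, so these counts too are near the background, and the list's median difference was −6.16 points, beside −0.79 over all genes compared. *Wdfy3*, which encodes the large scaffold ALFY for clearing protein aggregates, was found in 47.5% of FOS+ and 82.9% of FOS− nuclei, with mean levels of 2.54 ± 2.95 and 5.51 ± 3.15. *Calcoco1*, a relative of the cargo receptor NDP52, was found in 7.5% and 46.3%, with mean levels of 0.43 ± 1.70 and 3.02 ± 3.54. Both were lower in 4 of 4 amplification conditions. From the same experiment the paper lists *Calcoco1* among transcriptional regulators raised in FOS− nuclei. Other genes of the list were past 1 limit and missed the other. *Rheb*, which encodes the small GTPase that activates mTOR, was found in 92.5% of FOS+ and 73.2% of FOS− nuclei, with levels of 5.53 ± 3.11 and 2.94 ± 2.41, a difference of 19.3 points and 2.59 in level that was above 0 in 4 of 4 conditions. *Tmem41b*, a lipid scramblase gene, differed by 23.9 points (80% and 56.1%) but by 0.60 in level, and *Pik3c3*, which encodes the catalytic subunit of the lipid kinase, by −19.3 points (10.0% and 29.3%) and −1.30 in level. Of the 2 lower genes, *Calcoco1* was found in 70.0% of PTZ and 76.3% of saline cells and *Wdfy3* in 76.7% and 65.8%, neither past the limits.

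**Figure D4:**
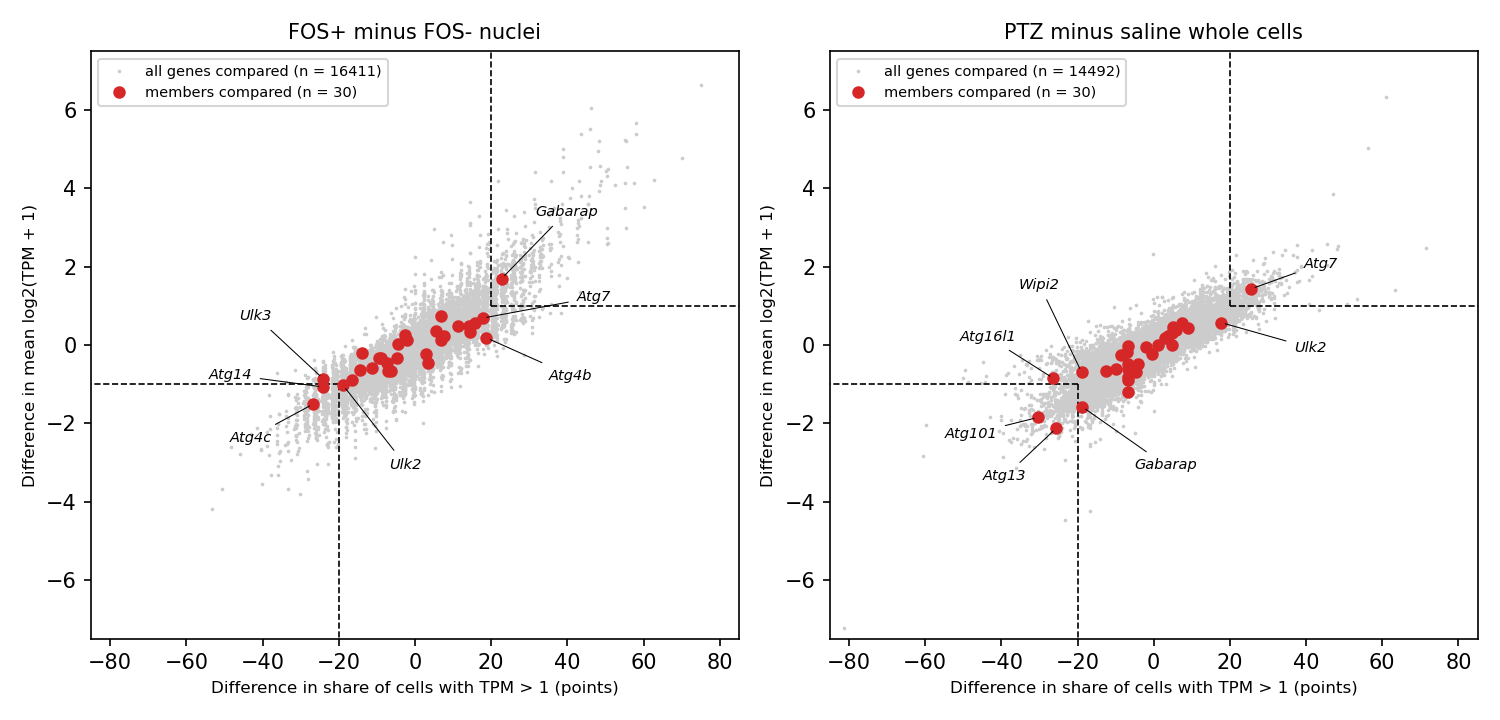
Each point is a gene, with the difference in the share of cells above 1 TPM (percentage points) on the x axis and the difference in mean log2(TPM + 1) on the y axis, grey for all genes compared (16411 in nuclei, 14492 in whole cells) and red for the 30 members compared. Dashed lines mark the limits, and 3 members lie beyond them in each panel, *Gabarap*, *Atg14* and *Atg4c* on the left and *Atg7*, *Atg101* and *Atg13* on the right.

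The comparison of PTZ with saline whole cells asks what a seizure-inducing drug changes in DGCs prepared by protease. Of the members, 30 were compared, and *Atg9b*, with reads in 3 cells, was not. *Atg7* was higher in PTZ cells, and *Atg101* and *Atg13* were lower. This was 1 of 30 members (3.33%) higher, beside 2.09% of the 14492 genes compared, and 2 of 30 (6.67%) lower, beside 3% of all genes, again near the background, and the other 27 were not past the limits. The medians over members were −5.70 points and −0.24 in log2(TPM + 1), beside −0.70 points and −0.05 over all genes.

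*Atg101* and *Atg13* both encode subunits of the ULK complex that are not kinases. *Atg101* was found in 13 of 30 PTZ (43.3%, 25.5 to 62.6) and 28 of 38 saline cells (73.7%, 56.9 to 86.6). Its median was 0 TPM in PTZ cells, with a range of 0 to 1187, and 118 TPM in saline cells, with a range of 0 to 483. The mean level was 3.23 ± 3.97 against 5.08 ± 3.49, a difference of −1.85, while the mean TPM was 138 and 137. *Atg13* was found in 16 of 30 PTZ (53.3%, 34.3 to 71.7) and 30 of 38 saline cells (78.9%, 62.7 to 90.4), with medians of 3.60 and 58.9 TPM and highest values of 136 and 304 TPM. Its mean level was 2.69 ± 2.77 against 4.82 ± 2.79, a difference of −2.13. The groups overlapped for both genes. In the other comparison *Atg101* and *Atg13* were not past the limits. None of the 4 *Ulk* genes was past the limits. *Ulk2* was found in 46.7% of PTZ and 28.9% of saline cells, *Ulk1* in 40% and 34.2%, *Ulk3* in 30% and 26.3% and *Ulk4* in 30% and 28.9%. Without the 4 PTZ cells of over 10000 genes, *Ulk1* and *Ulk4* turned to 30.8% and 19.2% of PTZ cells, below saline.

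*Atg7* was found in 14 of 30 PTZ (46.7%, 28.3 to 65.7) and 8 of 38 saline cells (21.1%, 9.55 to 37.3). It ran from 0 to 237 TPM in PTZ cells and from 0 to 217 TPM in saline cells, and the mean level was 2.5 ± 2.95 against 1.07 ± 2.36, a difference of 1.44. All 4 PTZ cells with over 10000 genes held it, at 3.89 to 21.8 TPM. Without them it was found in 10 of 26 PTZ cells (38.5%), a difference of 17.4 points and 1.25 in level, and was no longer past the limit on share. Of the other conjugation enzymes, *Atg16l1* just missed the limit on level, with 50% of PTZ and 76.3% of saline cells and a difference of −0.85. *Atg12*, the ubiquitin-like protein joined to ATG5 and the most abundant of this group in whole cells, was found in 73.3% and 65.8%, with levels of 4.65 ± 3.03 and 4.09 ± 3.31.

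The 120 bases before a start are printed for *Atg101* (chr15:101284152-101284271, + strand) and *Atg13* (chr2:91710593-91710712, − strand), the subunit genes that were lower. For *Atg101* this is the GENCODE start, 29 bases before the RefSeq start. For *Atg13* it is the RefSeq start, 16 bases before the GENCODE start. These stretches differ in base composition, with a GC content of 70.8% and 35.8%. For *Atg7* (chr6:114670952-114670981, + strand) the 30 bases around CACGTG are given, with the motif in capitals.
Atg101: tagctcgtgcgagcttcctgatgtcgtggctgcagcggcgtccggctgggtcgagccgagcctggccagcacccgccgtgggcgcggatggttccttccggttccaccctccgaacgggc
Atg13: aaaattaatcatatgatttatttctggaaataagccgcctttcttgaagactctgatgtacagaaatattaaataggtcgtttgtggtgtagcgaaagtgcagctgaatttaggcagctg
Atg7: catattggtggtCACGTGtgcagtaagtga

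**Figure D5:**
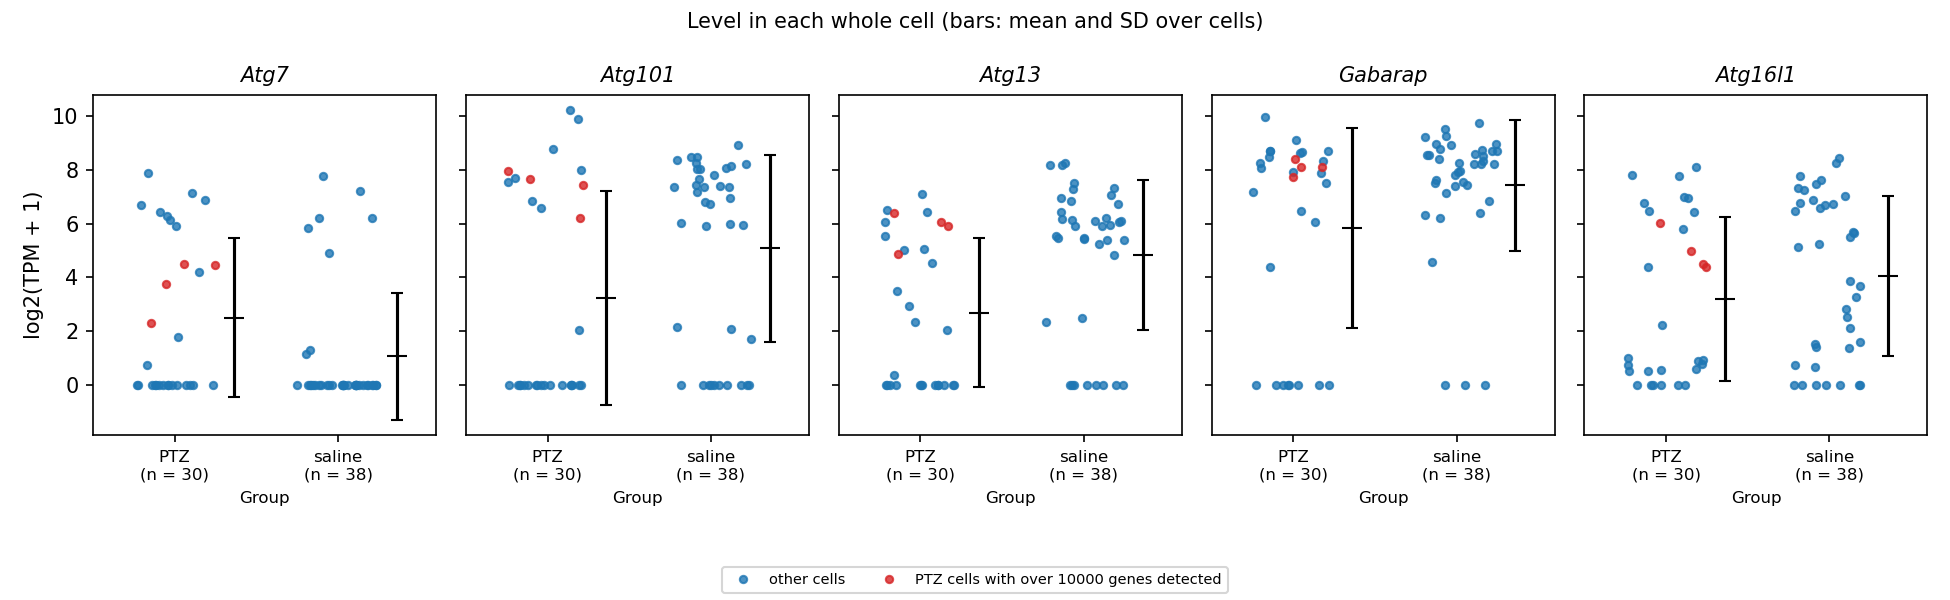
Each point is 1 whole cell, with log2(TPM + 1) on the y axis, and bars give the mean and SD over cells, with the 4 PTZ cells of over 10000 genes in red. All 4 red cells hold each of the 5 genes, while *Atg101* is above 1 TPM in 9 of the 26 other PTZ cells.

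The ATG8 modifiers were found in fewer PTZ than saline cells for all 5 genes, where 7587 of the 14492 genes compared were, and none was past the limits. *Gabarap* came nearest, with 22 of 30 PTZ (73.3%, 54.1 to 87.7) and 35 of 38 saline cells (92.1%, 78.6 to 98.3), medians of 242 and 297 TPM and a difference in level of −1.58. *Gabarapl1* and *Gabarapl2* were each found in 28 of 30 PTZ and 38 of 38 saline cells, with differences in level of −1.21 and −0.89. Summed over the 5 modifiers, PTZ cells ran from 157 to 3628 TPM with a median of 1689, and saline cells from 499 to 3338 with a median of 1994. The mean TPM of *Map1lc3b* was 277 in PTZ and 270 in saline cells, while those of the other modifiers were lower in PTZ cells. *Sqstm1* had a lower mean level in PTZ cells, 8.49 ± 2.53 against 9.30 ± 0.94, but a higher median, 692 against 669 TPM. It was found in 93.3% of PTZ and 100% of saline cells. *Gabarap* had opposite signs in the 2 comparisons, 1.70 between FOS+ and FOS− nuclei and −1.58, short of the limits, between PTZ and saline cells, and whether the 2 differences differ was not tested.

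Of the remaining abundant members, *Becn1* was at 6.54 ± 2.48 in PTZ and 6.11 ± 3.06 in saline cells, *Atg9a* at 5.04 ± 2.88 and 4.87 ± 3.27, and *Atg4b* at 3.18 ± 3.33 and 3.23 ± 3.26, none of them past the limits. *Wipi2* was found in 60% of PTZ and 78.9% of saline cells. Of the 34 further pathway genes compared, none was higher and 1 (2.94%, beside 3% of all genes) was lower in PTZ cells, a share at the background. It was *Mtor*, the kinase that restrains autophagy when nutrients are ample, in 43.3% of PTZ and 65.8% of saline cells, with levels of 2.08 ± 2.47 and 3.31 ± 2.70.

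The members not yet described in the comparisons were found in part of the FOS+ and FOS− nuclei and of the PTZ and saline cells. None was past the limits in either comparison. Of the lipid transfer proteins that feed the growing membrane, *Atg2a* was found in 47.5% of FOS+ and 31.7% of FOS− nuclei and in 60% of PTZ and 55.3% of saline cells, and *Atg2b* in 30% and 39% and in 53.3% and 65.8%. *Wipi1*, the paralog of *Wipi2*, was found in 10.0% and 17.1% of FOS+ and FOS− nuclei and in 40% and 44.7% of PTZ and saline cells. These values place *Wipi2* above *Wipi1* in share in all 5 groups. Of the conjugation enzymes, *Atg3*, which passes ATG8 to its lipid, was found in 35% of FOS+ and 46.3% of FOS− nuclei and in 66.7% of PTZ and 73.7% of saline cells. *Atg5*, the partner of ATG12, was found in 12.5% and 26.8% of the nuclei and in 46.7% and 55.3% of the whole cells, and *Atg10*, which joins that pair, in 22.5% and 19.5% and in 30% and 36.8%. *Atg4d*, a further ATG4 protease, was found in 22.5% and 17.1% and in 36.7% and 31.6%, with 14.6% of its 50-base stretches shared with the antisense gene *Kri1*. *Map1lc3a*, an LC3 modifier, was found in 10.0% of FOS+ and 14.6% of FOS− nuclei, and in 80% of PTZ and 86.8% of saline cells.

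Without the 4 PTZ cells of over 10000 genes, none of 29 members compared was higher and 5 were lower: *Atg101*, *Atg13*, *Atg16l1*, *Gabarap* and *Wipi2*. In that setting 0.858% of the 13751 genes compared were higher and 8.62% lower, so the background moved too. *Atg101* was then found in 9 of 26 PTZ cells (34.6%) with a difference of −39.1 points, and *Atg13* in 12 of 26 (46.2%) with a difference of −32.8 points. Without the PTZ cell that held *Gfap*, the same 3 members were past the limits as with it.

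All windows were searched on both strands for CACGTG (the E-box core that TFEB-family factors bind), TGANTCA (the AP-1 site of FOS and JUN) and TGACGTCA (the cAMP response element). TGANTCA was in 0 of the 29 members' windows and in 7.81% of all 32851 windows. CACGTG was in 4 of 29 (13.8%) and in 7.15% of all, and TGACGTCA in 2 of 29 (6.90%) and in 1.79% of all. Of the members past the limits, *Atg4c*, *Atg101* and *Atg13* hold none of them, and *Atg14* and *Atg7* hold CACGTG. Like that of *Atg14*, the RefSeq start of *Atg7* lies inside the GENCODE gene, by 27999 bases, and its window may not be the promoter used in DGCs. The start of *Gabarap* lies 227 bases inside its gene, and its window holds no match.

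The 6 members past the limits lie on separate chromosomes in GRCm38: *Gabarap* at chr11:69991143-69994951, *Atg14* at chr14:47540893-47570649, *Atg4c* at chr4:99193934-99259787, *Atg7* at chr6:114643097-114860614, *Atg101* at chr15:101284272-101290945 and *Atg13* at chr2:91674618-91710576. *Gabarap*, *Atg4c*, *Atg101* and *Atg13* overlap no other annotated gene. *Atg7* overlaps 3 genes on its own strand and *Atg14* overlaps 2 antisense genes.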

How the data were processed

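The deposited libraries used here are of 82 whole cells and 119 nuclei. Per the methods, the authors trimmed reads and aligned them with RSEM (Bowtie 1.0.0, per the submitters' processing notes) to mm10 (GRCm38) with the Ensembl annotation. The deposited tables hold expected counts, without normalization, and TPM values, which the authors computed with RSEM within each cell; they are deposited without a log transformation. Whole cells and HC nuclei had paired reads of 100 bases and NE nuclei single reads of 50 bases.

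Cells were kept if their total count was above 50000 and their genes with a TPM above 1 exceeded the mean minus 2 SD of the table, which kept 30 of 35 PTZ, 38 of 47 saline, 40 of 48 FOS+ and 41 of 48 FOS− samples. All 23 HC nuclei were kept. ERCC rows are not in the tables used here, so the study's ERCC criterion was not applied. No doublet caller was run. Counts were rounded to whole numbers for filters, sums and thinning. A count of 3 is 5.85e-05% to 0.00446% of the total in whole cells and 0.000283% to 0.00470% in NE nuclei. The study tested single cells with edgeR; here each group is 1 biological sample and no test was run. A comparison covered the genes for which 5 or more of its cells had a read, and the code that makes the calls was checked on simulated counts with known changes, which does not calibrate the counts of calls. Members past the limits of 20 points and 1 in log2 are named in full, with the most abundant member of each role. NE nuclei spanned TSO at 1 or 10 µM and ERCC at 1:200 or 1:2000. The members and lists were chosen with earlier results of these data known. TMM factors, for an alternative only, came from edgeR 4.0.16 (R 4.3.3), and other values from pandas 2.3.3 and scipy 1.17.1. Annotation was GENCODE of GRCm38, promoter windows were RefSeq's, and stretches of 50 bases measured shared sequence.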

Additional observations from a re-analysis of the deposited data

How the results depend on the processing

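Each group is 1 mouse or 1 pool, so none of these settings measures the spread between animals. Leaving out cells bears on the spread between cells, and the other settings change filters, limits or scaling. No paired analysis was possible because no test was run and the replicate numbers only name cells. In nuclei most members were at 0 in most samples, and a member found in a few nuclei can pass or miss the limits by 1 nucleus.

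With all cells of the tables, 0 members were higher and 1 (*Atg4c*) was lower in FOS+ nuclei, and 1 (*Atg101*) was lower in PTZ cells. With detection at a count of at least 5, 0 were higher and 0 lower in FOS+ nuclei. With CPM by total count or with TMM factors, 4 were lower in FOS+ nuclei (*Atg14*, *Atg4c*, *Ulk2* and *Ulk3*). With a pseudocount of 10, 0 were lower in FOS+ nuclei, and 0 were higher and 1 (*Atg13*) lower in PTZ cells. With limits of 30 points and 1.5, 0 were higher and 0 lower in FOS+ nuclei, and 0 higher and 1 lower in PTZ cells. With limits of 10 points and 0.5, 3 were higher and 7 lower in FOS+ nuclei, and 2 higher and 7 lower in PTZ cells. The shares of all genes past the limits in these settings are not given here, so these counts say nothing about the members as a group. Without the 4 PTZ cells over 10000 genes, a setting chosen after seeing the data, 0 were higher and 5 lower in PTZ cells. Leaving out the PTZ cell with *Gfap* or the FOS+ nucleus of 1373 genes was also chosen after seeing the data. With each cell left out in turn, the number lower ran from 1 to 3 in FOS+ nuclei and from 2 to 3 in PTZ cells, and the numbers higher were 1 throughout. *Atg14* was no longer past the limits in 8 of these: without FOS− replicate 15, 25, 39, 43 or 45 *Atg4c* alone was lower, and without FOS− replicate 8, 23 or 34 *Ulk2* was lower in its place. *Ulk2* was past the limits in 33 of the 81. In PTZ cells *Atg16l1* was also lower without PTZ replicate 13, 24 or 30, and *Gabarap* without saline replicate 23, 41 or 45. With no filter on low values, the shares of all genes past the limits were 1.14% higher and 1.17% lower in FOS+ nuclei and 0.708% higher and 1.02% lower in PTZ cells.

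Of 13 settings other than leaving out a cell, *Gabarap* was past the limits in 10, *Atg4c* in 10, *Atg14* in 7, *Atg7* in 10, *Atg101* in 12 and *Atg13* in 11. *Ulk2*, just outside the limits, was lower in FOS+ nuclei in 7 of them. The differences of the 6 members past the limits kept their direction in every setting run. The cause of the changes was not tested.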
